A study of Homo sapiens with 2 samples.

Results

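The annexins are a family of proteins that bind negatively charged phospholipids of the membrane when calcium rises. The genes described here are the 10 annexins ANXA1, ANXA2, ANXA3, ANXA4, ANXA5, ANXA6, ANXA7, ANXA8, ANXA10 and ANXA11, taken by their gene symbol. They were chosen with earlier results of these data known. Rows were matched for 9 of the 10 among 13137 genes, and ANXA8 was not analysed here. Of these 9 genes, 8 had at least 20 tags in the libraries together, and ANXA2, with 10 tags, did not.

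The study followed genes whose transcripts changed when SOX2, a transcription factor of stem cells, was silenced in A549, an established cell line of human lung adenocarcinoma. The group shRNA-SOX2 carried an shRNA against SOX2 under the doxycycline-inducible H1tetO promoter, and the group shRNA-Con carried a scrambled shRNA in the same lentiviral system. Both groups were puromycin-selected pools of infected cells and both received doxycycline for 4 days. Each group had 1 library of digital gene expression tags, short sequences read from mRNA and counted per gene.

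The library of shRNA-Con, called the control library from here on, had 2304184 tags assigned to genes, and that labelled shRNA-SOX2 had 2093816. For SOX2 itself the control library gave 16 tags against 23 in that labelled shRNA-SOX2 (ratio 1.58, 95% interval 0.80 to 3.2, adjusted p = 0.333 by Fisher's exact test). The RNA of the targeted gene was thus not measured to be lower in the library labelled for its silencing. At the protein level, the paper reported its silencing in A549 cells by Western blotting, after the same time in doxycycline. The epithelial keratins KRT8 (7702 tags in the control library against 12729) and KRT18 (10318 and 7887) were abundant. The other epithelial markers had few tags: KRT19 had 35 and 127, CDH1 had 50 and 50, and EPCAM had 8 and 4. The immune markers summed to 2 and 2 tags with 1 of 5 genes measured, and the endothelial markers to 3 and 0 tags with 1 of 3 genes measured, while the fibroblast markers summed to 53 and 66 tags with 3 of 5 measured. The alveolar type II markers SFTPB, SFTPC and NKX2-1 were not analysed here. With 1 library per group there is no replicate error, so each test compares these libraries and not the conditions, and each interval covers counting error only.

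Annexins share a core of repeats, each of which can hold a calcium-binding loop, and differ in the N-terminal tail, which binds partners such as S100 proteins. ANXA1, also called lipocortin, is induced by glucocorticoids, restrains cytosolic phospholipase A2 and, when secreted, acts on formyl peptide receptors to dampen inflammation. ANXA2 pairs with S100A10 and holds plasminogen at the cell surface, and ANXA5 is the phosphatidylserine-binding protein used to stain apoptotic cells. In the gene ontology terms of the deposited table, 9 of 9 measured annexins carry calcium-dependent phospholipid binding, a term held by 19 genes there.

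The loop can be read in the transcripts themselves. The letters CATGAAGGG, which lie where the calcium-binding loop of an annexin repeat begins, occurred in the coding sequence of 7 of the 10 annexins at 12 sites. At 12 of these 12 sites the stretch of 21 bases that begins with these letters crossed an exon junction in GENCODE release 29. They are shown for 5 members because they make the shared repeat visible, with the shared letters in capitals and the following bases in lower case.
ANXA1: CATGAAGGGccttggaactga
ANXA2: CATGAAGGGgctgggaaccga
ANXA3: CATGAAGGGcgcgggaacaaa
ANXA4: CATGAAGGGagccggcactga
ANXA10: CATGAAGGGagtaggcactga
The bases after the shared letters differed between members.

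A tag assay reads 1 short stretch of a transcript, usually next to the last site of a restriction enzyme before the poly(A) tail. The enzyme used was not given in the sources used here. CATG is the site of NlaIII, a common choice, and the 21 bases that begin at the last CATG of the longest principal transcript are shown for 4 members to show where such a tag would lie, with the site in capitals.
ANXA1: CATGagaaagatgtctatgta
ANXA2: CATGcttccagctaacaggtc
ANXA3: CATGaagggcgcgggaacaaa
ANXA8: CATGccctcagcaccactctt
The stretch of ANXA1 lies in the 3′ UTR, in exon 12, at chr9:73170344-73170364 on the plus strand of GRCh38, 50 bases before the transcript's end. That of ANXA2 lies in the 3′ UTR in exon 14 (chr15:60347571-60347591, minus strand). For ANXA3 the last CATG is the coding site of the repeat printed above, 973 bases before the end. Its 21 bases lie across exons 5 and 6 (chr4:78582284-78586273, plus strand, with the intron between them). None of the 9 CATG stretches of ANXA1 and none of the 3 of ANXA3 occurred in another gene among 206694 annotated transcripts. Of the stretches of ANXA2, 5 of 9 occurred in another gene, but the printed one was found in ANXA2 alone. Of those of ANXA8, 13 of 14 occurred in another gene, the printed one being shared with ANXA8L1. Which site was read, and how tags found in several genes were counted, was not given in the sources used here. The count of ANXA2 is therefore uncertain.

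ANXA1 (Entrez Gene 301, chr9:73151757-73170393, plus strand, GRCh38) had the most tags of the measured annexins in both libraries and rose in the library labelled shRNA-SOX2. The control library gave 2354 tags of it, against 6042 in the library labelled shRNA-SOX2. As CPM, tags scaled to 1000000 gene tags, these were 1022 (95% Poisson interval 981 to 1064) and 2886 (2813 to 2959), and the intervals lay far apart. In bulk RNA, more cells that express a gene and more transcripts per cell cannot be told apart. The ratio was 2.82 (2.69 to 2.96), and its adjusted p by Fisher's exact test was too small to be represented. Its place among all genes ordered by tags moved from 109 to 26. Of 10045 genes with at least 20 tags, 445 had a log2 fold change at least as high as that of ANXA1, itself included. Among the 53 genes with at least as many tags, 4 did.

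**Figure D1:**
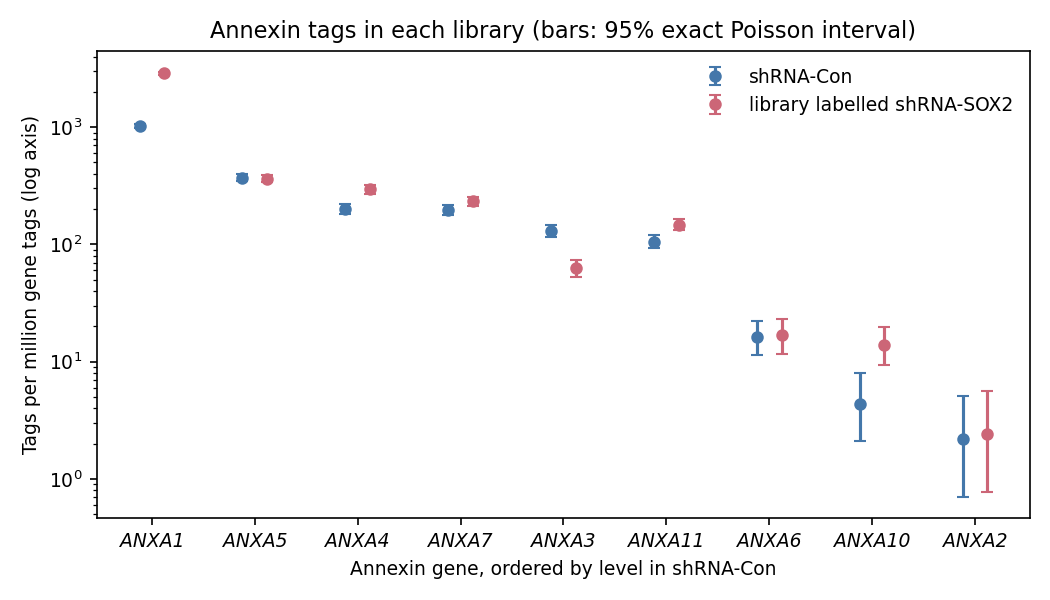
Level of each of the 9 measured annexins in both libraries, in tags scaled to 1000000 gene tags (CPM) on a log axis, with 95% Poisson intervals that cover counting error only (1 library per group). ANXA1 lies highest in both libraries, at 1022 and 2886, and ANXA2, whose count is uncertain, lies lowest, at 2.17 and 2.39.

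ANXA3 (Entrez Gene 306, chr4:78551519-78610451, plus strand), which has also been described as an inhibitor of phospholipase A2 and which promotes blood vessel formation, fell in the same comparison. The control library gave 302 tags, or 131 CPM (117 to 147), and the library labelled shRNA-SOX2 gave 131 tags, or 62.6 CPM (52.3 to 74.2). The ratio was 0.477 (0.386 to 0.588), a log2 fold change of -1.07, with an adjusted p of 3.39e-12 by Fisher's exact test. Log2 fold changes at least as low were seen in 1172 of the 10045 genes.

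ANXA4 (Entrez Gene 307, chr2:69644425-69827100, plus strand), an annexin of secretory epithelia, rose from 463 to 616 tags, or from 201 to 294 CPM (ratio 1.46, 1.30 to 1.66, adjusted p = 5.11e-09, Fisher's exact test). ANXA11 (Entrez Gene 311, chr10:80150889-80205572, minus strand), whose long tail rich in glycine, tyrosine and proline binds the calcium sensor PDCD6, rose from 243 to 309 tags, or from 105 to 148 CPM (ratio 1.40, 1.18 to 1.66, adjusted p = 0.000432, Fisher's exact test). When the tags were scaled by all clean tags of the library, ANXA11 no longer passed the threshold (adjusted p = 0.00947). Both increases were smaller than that of ANXA1, whose interval did not overlap theirs.

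The other 5 measured annexins did not pass an FDR of 0.001. ANXA7, a relative of ANXA11 that binds sorcin, had 454 and 488 tags (ratio 1.18, 1.04 to 1.35, adjusted p = 0.0293). ANXA10, an annexin of gastric epithelium, had 10 and 29 tags (ratio 3.19, 1.51 to 7.34, adjusted p = 0.00413), a ratio past 2-fold that rests on few tags. ANXA5 had 855 and 760 tags, or 371 and 363 CPM (ratio 0.978, 0.886 to 1.08, adjusted p = 0.785). ANXA5 came second in tags among the measured annexins in both libraries, and the interval of its ratio is narrow and holds 1. ANXA6, which has a duplicated core, had 37 and 35 tags (ratio 1.04, 0.637 to 1.70, adjusted p = 0.966). ANXA2 had 5 tags in each library, and at that depth a difference was not detectable (ratio 1.10, 0.253 to 4.78, adjusted p = 1).

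Of the 9 measured annexins, 3 were thus called higher and 1 was called lower by Fisher's exact test at an FDR of 0.001. Over all genes, 9.53% were called higher and 12.2% lower. More tags make a call easier to reach, and among genes with at least 100 tags the shares were 16.6% and 22.5%, against which stand 3 and 1 of the 6 annexins of that depth. By size, 2 of the 8 annexins with at least 20 tags were at least 2-fold higher (ANXA1 and ANXA10) and 1 was at least 2-fold lower (ANXA3), where 10.4% of all genes of that depth were higher and 13% were lower by as much. The median log2 fold change of the 8 annexins was 0.36, and that of all genes with at least 20 tags was -0.10, with quartiles at -0.62 and 0.44. Under an assumed biological coefficient of variation of 0.1 between cultures (edgeR's exact test), 2 of these 4 calls, ANXA1 and ANXA3, still passed, and at 0.2 none of the 4 did.

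**Figure D2:**
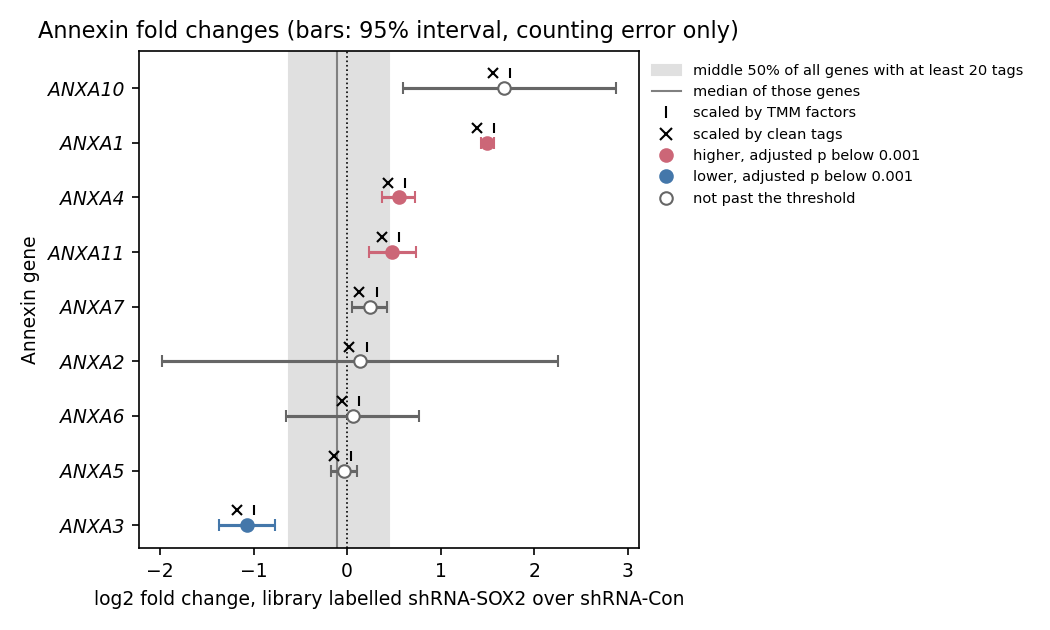
Log2 fold change of each measured annexin, positive where the tags were more frequent in the library labelled shRNA-SOX2, with 95% Clopper-Pearson intervals that cover counting error only. The values run from -1.07 for ANXA3 to 1.67 for ANXA10, whose interval reaches from 0.60 to 2.88, and the interval of ANXA1 is the narrowest, from 1.43 to 1.57.

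The order of the levels differed between the libraries only in that ANXA3 and ANXA11 exchanged places. In the control library the order ran from ANXA1 and ANXA5 through ANXA4, ANXA7, ANXA3, ANXA11 and ANXA6 to ANXA10 and ANXA2. Neighbours whose intervals overlapped there were ANXA4 with ANXA7, ANXA3 with ANXA11, and ANXA10 with ANXA2. In the library labelled shRNA-SOX2, ANXA11 stood above ANXA3 with intervals apart, and so did ANXA4 above ANXA7, while ANXA6 overlapped ANXA10. These orders compare the CPM of each gene. A tag count does not grow with transcript length, but reading the orders as numbers of transcripts rests on each transcript having 1 readable tag. The place of ANXA2 is uncertain, because its count is.

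ANXA1 carried most of the change in the summed annexin tags. The 9 genes together gave 0.205% of the gene tags of the control library (4723 tags) and 0.402% of those of the library labelled shRNA-SOX2 (8415 tags), a ratio of 1.96 (1.89 to 2.03). Without ANXA1, the other 8 had 2369 and 2373 tags, 0.103% and 0.113%, a ratio of 1.10 (1.04 to 1.17). ANXA1 made up 49.8% of the annexin tags in the control library (48.4% to 51.3%) but 71.8% in the library labelled shRNA-SOX2 (70.8% to 72.8%).

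Set against each other rather than against all genes, the remaining members also moved unequally. Among annexin tags other than those of ANXA1, the odds of ANXA3 fell to between 0.320 and 0.497 times those of the control library (95% interval), and those of ANXA5 were 0.834 times (0.738 to 0.943). The odds of ANXA4 were 1.44 times as high (1.26 to 1.66), those of ANXA11 were 1.31 times (1.09 to 1.57) and those of ANXA10 were 2.92 times (1.38 to 6.73). For ANXA7 the ratio of odds was 1.09 (0.944 to 1.26), an interval that holds 1. These ratios do not depend on how the libraries were scaled.

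**Figure D3:**
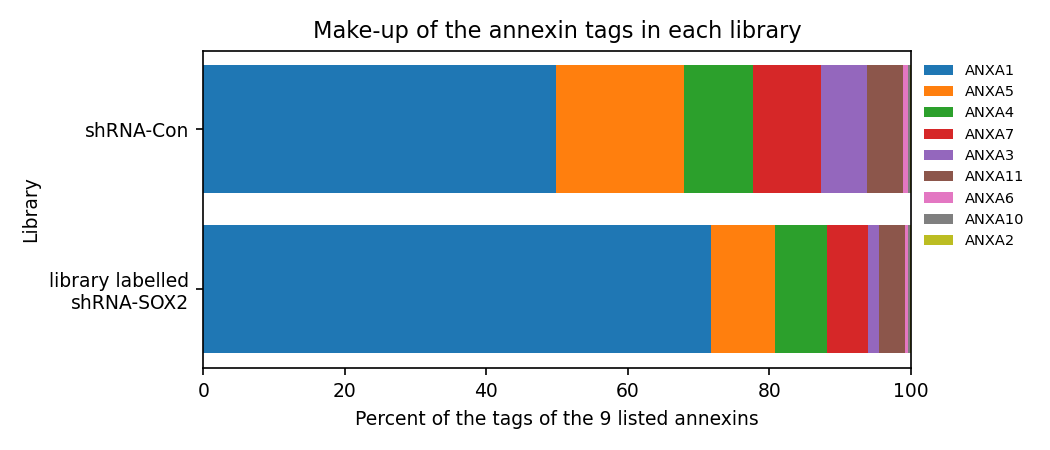
Share of the summed tags of the 9 measured members that fell on each one in each library, in percent. ANXA1 takes 49.8% in the control library (shRNA-Con) but 71.8% in the library labelled shRNA-SOX2, and ANXA3 takes 6.39% and 1.56%.

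Promoter sequences are shown for ANXA1 and ANXA10, with the highest ratios among the listed members, and for ANXA3, the listed member called lower. They come from RefSeq (GRCh38.p14), where 9 of the 10 annexins matched 13 windows of 250 bases before to 50 bases after a transcription start. The 100 bases directly before the start are printed, with the TATA box letters TATAAA in capitals.
ANXA1, chr9:73151765-73151864, plus strand: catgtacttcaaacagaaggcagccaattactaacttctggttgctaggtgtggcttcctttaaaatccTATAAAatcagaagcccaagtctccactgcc
ANXA10, chr4:168092437-168092536, plus strand: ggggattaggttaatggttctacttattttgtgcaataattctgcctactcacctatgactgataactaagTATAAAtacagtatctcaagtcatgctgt
ANXA3, chr4:78551670-78551769, plus strand: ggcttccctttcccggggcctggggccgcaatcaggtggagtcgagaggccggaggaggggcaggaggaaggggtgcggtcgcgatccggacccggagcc
The windows of ANXA1 and ANXA10 were poor in G and C (37.7% and 32.7%) and held TATAAA 31 and 29 bases before the start. That of ANXA3 was 64.7% G and C and held no such match. The windows of ANXA4, which was called higher, were 78% and 72% G and C and also held no TATAAA. ANXA10, despite its ratio, was not called. The letters TATAAA were found on either strand in 4 of the 13 annexin windows and in 11.5% of 35116 windows of that length. ACAATG, the core of the site bound by SOX proteins, was found on either strand in 1 annexin window, the first of ANXA4, 190 bases before the start, and in 10.8% of all windows. ANXA2 and the first window of ANXA11 also held TATAAA, 31 and 61 bases before the start. The ratio of ANXA11 was not past 2-fold, and ANXA2 had too few tags for a difference to be detectable. A match of letters is a description of these windows and does not show that a factor binds there.

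Transcripts of genes whose proteins bind annexins were called in both directions. The shares over all genes, 9.53% higher and 12.2% lower, or 16.6% and 22.5% with at least 100 tags, are the background for this and the following lists, and a list count near them is not a result about the list. Of 11 measured genes of the S100 and EF-hand families with annexin partners, 4 were called higher, 2 were called lower and 5 were not called, with a median log2 fold change of 0.21. At 100 tags or more these were 4 higher and 2 lower of 10, and the latter share is near the background. S100A10, the partner of ANXA2, rose from 1598 to 2055 tags (log2 fold change 0.50, adjusted p = 4.16e-24 by Fisher's exact test). S100A11, which binds the tail of ANXA1, had 820 and 859 tags (log2 fold change 0.21) and did not pass the threshold (adjusted p = 0.0121, Fisher's exact test). PDCD6, the partner of ANXA7 and ANXA11, rose from 332 to 709 tags (1.23), and sorcin (SRI), another partner of both, had 107 and 82 tags (-0.25, adjusted p = 0.407, Fisher's exact test). CALM3 rose from 293 to 598 tags and S100A4 from 1586 to 2308, while CALM2 fell from 1253 to 373 and S100A6 from 7776 to 3109. CALM2 and CALM3 encode the same calmodulin protein and have close copies, and tags shared between copies could be split differently by another count.

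The surface and signalling genes tied to single annexins did not move one way. Of 5 measured genes of plasmin generation, ENO1, a plasminogen-binding glycolytic enzyme, rose from 1314 to 1509 tags (0.34) and PLAU, the urokinase that activates plasminogen, fell from 224 to 24 tags (-3.08). The formyl peptide receptors FPR1, FPR2 and FPR3, on which ANXA1 acts, were not analysed here. Of the 8 genes of phospholipase A2 and the glucocorticoid response, 2 rose, 2 fell and 4 were not called, with a median of 0.13. With at least 100 tags these were 1 higher and 2 lower of 5. PLA2G4A, the cytosolic phospholipase A2, rose from 114 to 236 tags (1.19) and PTGS1, a cyclooxygenase, went from 0 to 29 tags, a ratio of 10.6 with the 0 set to 3 tags and a 95% interval from the counts that begins at 8.11. PTGS2, the inducible cyclooxygenase, fell from 336 to 135 tags (-1.18), and DUSP1, a phosphatase induced by glucocorticoids, fell from 714 to 403 (-0.69).

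Among genes of membrane repair and of other calcium-dependent lipid binding, more were called lower than higher, as among all genes. Of 15 membrane repair genes, 1 was called higher, 5 lower and 9 neither. The median log2 fold change was -0.37 over the 13 with at least 20 tags and -0.16 over all 15. With at least 100 tags, 1 of 13 was higher and 5 were lower. CAPNS1, the small calpain subunit, rose from 3564 to 4293 tags (0.41). VPS4A and TSG101, of the ESCRT machinery, fell from 245 to 105 tags (-1.08) and from 194 to 95 tags (-0.89), and MYOF, a relative of dysferlin, fell from 1113 to 636 tags (-0.67). Of 16 measured copines, extended synaptotagmins and related proteins with the same kind of lipid binding, 1 was called higher, 2 lower and 13 neither. The median was -0.17 over the 10 with at least 20 tags and -0.01 over all 16, and with at least 100 tags 1 of 9 was higher and 2 were lower, shares near the background. CPNE3 rose from 210 to 346 tags (0.86), whereas its relative CPNE1 fell from 419 to 140 tags (-1.44) and ESYT1, a tether between endoplasmic reticulum and plasma membrane, fell from 220 to 87 tags (-1.20).

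Of 12 endosome genes linked to annexins, 5 were called higher, 1 lower and 6 neither, with a median of 0.09 and at least 100 tags for each of the 12. With clean-tag scaling 3 were called higher. SNX1, a sorting nexin, rose from 218 to 365 tags (0.88), RAB7A, the GTPase of late endosomes, from 366 to 560 (0.75) and LAMP1, a lysosomal membrane protein, from 181 to 257 (0.64). CTTN, an actin regulator, fell from 706 to 476 tags (-0.43). Each of the changes named for these lists passed an FDR of 0.001 by Fisher's exact test unless stated otherwise. Of the 27 genes called in these lists, 11 passed edgeR's exact test under an assumed coefficient of variation of 0.1, an alternative added after the data were seen. These were PDCD6, CALM3, CALM2, S100A6, PLAU, VPS4A, CPNE1, ESYT1, PTGS1, PLA2G4A and PTGS2, with none of the endosome list, and at 0.2 there were 2.

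**Figure D4:**
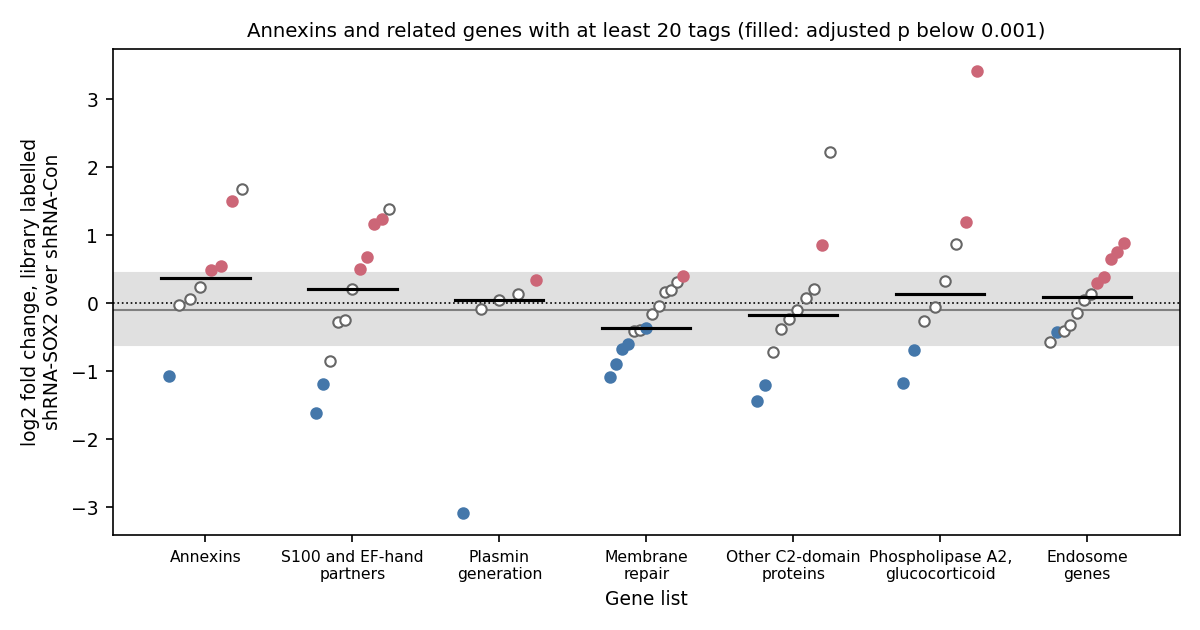
Log2 fold changes of the annexins and of the genes in each related list, 1 point per gene with at least 20 tags, positive where higher in the library labelled shRNA-SOX2, with the median of each list as a black bar and the median and middle 50% of all genes with at least 20 tags as a grey line and band. The annexin median is 0.36 against -0.10 for all genes, the membrane repair median is -0.37, and PTGS1 is drawn with its 0 tags set to 3.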

How the data were processed

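Digital gene expression tags were counted in 1 library of each group, from 4 µg of total RNA after oligo(dT) selection. The authors deposited raw tag counts per Entrez Gene ID and TPM (tags scaled to 1000000 clean tags). The submitters' processing notes name hg19, and the aligner and the handling of shared tags were not given in the sources used here. The deposited log2 ratio, p-value and FDR columns hold the authors' own comparison and were not used, nor was TPM tested.

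From the counts, each ratio divided a gene's share of the tags in the library labelled shRNA-SOX2 by its share in the control library, with counts under 3 set to 3. This floor is 1.30 CPM in the control library, shRNA-Con, against 1.43 CPM in the other. In the same order, gene tags were 65.5% and 60.6% of the 3516266 and 3456234 clean tags, totals recovered from count over TPM. Fisher's exact test (two-sided) was run per gene against the remaining gene tags, and p-values were adjusted by Benjamini-Hochberg over 13137 genes. The column code SC was read as shRNA-Con and S1 as shRNA-SOX2. Ratio intervals are 95% Clopper-Pearson intervals. Lists of related genes, the rule that names up to 3 called genes per direction in each list, and the annexins themselves were chosen with earlier results of these data known. Members, partners, receptors and other ANXA symbols were always named. The 19 rows with no symbol held at most 0.0535% of gene tags. Alternatives were TMM and median-ratio factors (edgeR 4.0.16, DESeq2 1.42.0, R 4.3.3), clean tags, other minimums, 0.5 added to each count, FDR 0.05, 1.5-fold, and edgeR's exact test under 3 assumed values of the biological coefficient of variation. The steps were run in Python 3.11.15 with scipy 1.17.1. Fisher's exact test with its adjustment and the log2 fold change were tested on simulated counts that held counting error only. The other steps were not tested in this way.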

Additional observations from a re-analysis of the deposited data

How the results depend on the processing

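No paired analysis was possible because there was a single library of each group, and no library could be left out. The planned sum of ANXA2 and ANXA8 with their near-identical copies was not run, since no copy had a row matched. When edgeR's exact test was given a biological coefficient of variation of 0.1, 0.2 and 0.4, the annexins called higher went from 3 to 1, 0 and 0, and those called lower from 1 to 1, 0 and 0. Over all genes, those called higher went from 1252 to 512, 65 and 0 and those called lower from 1597 to 654, 48 and 0, with 627 genes at an unadjusted p under 0.05 at 0.4. The adjusted p of ANXA1 was 1.33e-10 at 0.1 and 0.0124 at 0.2, and that of ANXA3 was 0.000413 and 0.140. At FDR 0.05, 5 annexins were higher, ANXA7 and ANXA10 added, as were 2148 genes, and 2754 were lower. The annexin median of 0.36 became 0.44 under TMM scaling, 0.43 under median-ratio scaling and 0.25 under clean-tag scaling, and that of all genes went from -0.10 to -0.030, -0.032 and -0.22, or -0.13 with at least 100 tags. The summed ratio of 1.96 became 1.81 with clean tags and 1.10 without ANXA1, and the latter became 1.02 with clean tags. ANXA5 turned to 0.041 (TMM) and 0.039 (median ratio), and ANXA6 to -0.055 (clean tags), neither called. The log2 fold change of ANXA3 went from -1.07 to -0.994 (TMM) and -0.996 (median ratio), so its decrease fell just short of 2-fold there. With clean tags it was -1.18. With clean tags, the plasmin list had 2 genes lower in place of 1 and the endosome list 3 higher in place of 5. Of 27 calls in the related lists, 11, 2 and 0 passed at 0.1, 0.2 and 0.4, an alternative added after seeing the data. Under clean-tag scaling, ANXA11 was no longer called (adjusted p = 0.00947, Fisher's exact test), which left 2 annexins called higher. The other alternatives changed no annexin's call.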

Other observations

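Rows for 2 further annexins were measured. ANXA13, an annexin of intestinal and kidney epithelium, gave 50 tags in the control library against 253 in that labelled shRNA-SOX2, or 21.7 and 121 CPM. The ratio was 5.57 (4.10 to 7.70), with an adjusted p of 1.34e-36 by Fisher's exact test and 5.80e-05 by edgeR's exact test at an assumed coefficient of variation of 0.2. It was the annexin row with the highest ratio in the table, above ANXA10 at 3.19 and ANXA1 at 2.82, although the interval of ANXA10 overlapped its own. ANXA9 had 2 and 4 tags and was not called.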
